A study of Mus musculus with 11 samples.

Results

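Antiviral interferon-stimulated genes were followed across the cell classes of the mouse central nervous system in experimental autoimmune encephalomyelitis (EAE), in which mice immunized against myelin develop a disease used to study multiple sclerosis. The set held 43 genes, chosen by name from the 25827 genes of the deposited matrices, with earlier results of these data known: Ifit1, Ifit2, Ifit3, Ifit3b, Rsad2, Oas1a, Oas2, Oas3, Oasl1, Oasl2, Mx1, Mx2, Isg15, Usp18, Ifih1, Dhx58, Ddx60, Herc6, Xaf1, Rtp4, Ifi27, Ifi27l2a, Ifi44, Ifi35, Trim25, Trim30a, Trim30d, Trim34a, Trim12c, Parp9, Parp14, Dtx3l, Zc3hav1, Zbp1, Samd9l, Slfn5, Slfn8, Bst2, Eif2ak2, Uba7, Sp100, Cmpk2 and Epsti1. Unique molecular identifiers (UMIs), which count captured RNA molecules, were summed per library and cell class, and a member was tested in a class where it had at least 20 UMIs over all 11 libraries.

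Nuclei came from cerebellum, brainstem of 1 hemisphere and cervical cord of male mice aged 8 to 12 weeks. Every mouse, controls included, carried the floxed Il12rb2 allele (Il12rb2fl/fl), a conditional allele of a chain of the interleukin-12 receptor. Mice labelled NestinCre additionally carried Cre recombinase driven by Nestin. That driver works in cells that give rise to neurons and macroglia, and leaves microglia and blood cells with their floxed allele. EAE was induced with the myelin peptide MOG35-55 in complete Freund's adjuvant plus pertussis toxin and sampled on day 10. There were 4 libraries of Il12rb2fl/fl mice with EAE (fl EAE 1 to 4), 4 of NestinCre mice with EAE (NestinCre EAE 1 to 4), 2 of non-immunized Il12rb2fl/fl mice (fl naive 2 and 3) and 1 of a non-immunized NestinCre mouse (NestinCre naive 2). Replicates 1 to 3 of both EAE groups were sequenced in run 1, replicate 4 of both in run 2 together with fl naive 2, and the other naive libraries in run 3.

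Interferons bind receptors on the cell surface that signal through Janus kinases and STAT proteins. A complex that holds STAT2 and IRF9, formed mainly after type I and type III interferons, binds interferon-stimulated response elements (ISREs) and switches on genes that detect viral RNA or block viral growth. Interferon-gamma acts mainly through gamma-activated sequences (GAS) and induces an overlapping set. In the brain these genes are known to respond in glia, infiltrating cells and, more weakly, neurons.

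The promoters of the members are shown first, as the sequence through which interferon is known to reach them. RefSeq promoters on GRCm38.p6, each of 250 bases before and 50 bases after the start site, were found for 32 of the 43 members. An ISRE core, spelled GAAANNGAAA and searched on both strands, lay in 17 of 32 member promoters (53.12%), against 1079 of 27025 genes (3.99%). A GAS core, spelled TTCNNNGAA, lay in 5 of 32 (15.62%), against 9.55% of all genes. By role, the ISRE core was present in 3 of 3 nucleic acid sensors, 4 of 5 TRIM genes, 3 of 4 Ifit genes and 4 of 6 replication blockers, in 2 of 4 oligoadenylate synthetase genes and 1 of 3 ISG15 conjugation genes, and in 0 of 2 ADP-ribosylation genes and 0 of 5 other induced genes. Both promoters below are shown for their number of matches: Isg15 had 3 cores, the most of any member, and Ddx60, higher in 6 classes, had 2. Capitals mark ISRE cores, and where cores overlap the capitals run through all of them.
Isg15: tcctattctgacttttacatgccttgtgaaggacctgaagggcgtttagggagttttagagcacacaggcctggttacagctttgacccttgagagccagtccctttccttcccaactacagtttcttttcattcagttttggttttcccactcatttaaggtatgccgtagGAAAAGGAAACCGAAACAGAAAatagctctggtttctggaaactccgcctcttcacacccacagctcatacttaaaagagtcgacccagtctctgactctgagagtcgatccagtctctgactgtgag
Ddx60: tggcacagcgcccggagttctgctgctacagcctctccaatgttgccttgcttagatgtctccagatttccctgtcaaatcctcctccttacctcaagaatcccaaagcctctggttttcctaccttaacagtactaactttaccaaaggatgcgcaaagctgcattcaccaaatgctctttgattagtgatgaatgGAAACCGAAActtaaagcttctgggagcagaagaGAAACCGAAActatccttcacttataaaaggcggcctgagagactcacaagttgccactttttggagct
The Isg15 window is chr4:156200769-156201068 on the minus strand and holds 3 overlapping cores from position -78 to position -57, counted from the start site as 0. The Ddx60 window is chr8:61927837-61928136 on the plus strand and holds 2 separate cores.

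Shorter windows show 1 core each, in capitals with 10 bases on either side, in members of the other roles. In Bst2 and Oas1a a further core overlaps the one marked and is left in lower case where it extends beyond it. Those reading TTTC carry the core on the opposite strand.
Ifit1: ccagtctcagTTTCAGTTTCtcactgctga
Ifit3: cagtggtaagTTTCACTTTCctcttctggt
Rsad2: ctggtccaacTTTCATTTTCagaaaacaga
Bst2: ccaggaaaatGAAACTGAAAggctgcagtt
Oas1a: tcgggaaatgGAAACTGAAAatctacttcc
Trim30a: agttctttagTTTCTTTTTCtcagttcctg
Ifit3 and its neighbour Ifit3b shared the window shown letter for letter, as did Trim30a and Trim30d. Their counts are given as uncertain, since related copies can share reads, and how reads were assigned between them was not tested. Ifi27 and Ifi27l2a overlap on opposite strands of chromosome 12, as do Parp9 and Dtx3l on chromosome 16, and reads in those overlaps were not examined. No ISRE core was found in the promoter of Oasl2.

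The 11 libraries held 40761007 to 86063464 UMIs. After filtering, 159265 nuclei remained, 11598 to 18519 per library, with median depths of 1818.5 to 3236 UMIs, and 8.782% stayed without a class name. These unnamed nuclei held 8.355% to 24.86% of a library's member UMIs, which enter only the sums over all nuclei. No cluster was named excitatory neurons: 3 came closest to that marker list but held too few of its markers. Pairs of libraries shared 0.359% to 0.685% of their barcodes. Il12rb2 itself had 502 to 818 UMIs per library and overlapped between genotypes, at 14.1, 16.7, 11.1 and 12.1 CPM (UMIs scaled to the same total in each library or class) in fl EAE 1 to 4 and 17.0, 14.99, 14.2 and 7.96 CPM in NestinCre EAE 1 to 4. Where these reads lie relative to the deleted part was not examined, so the genotype rests on the labels.

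RNA of infiltrating cells differed between libraries. Nuclei of infiltrating phagocytes numbered 11, 3, 24 and 22 across fl EAE 1 to 4, whereas NestinCre EAE 1 to 4 held 131, 86, 111 and 29. Neutrophils numbered 4, 3, 3 and 7 against 133, 47, 55 and 5. Both were too few in some libraries to be tested. UMIs of phagocyte marker genes also appeared in the sums of other classes, and in granule cells they were at 7.30, 4.92, 20.5 and 7.60 CPM in fl EAE 1 to 4 and 151.5, 68.2, 99.1 and 20.2 CPM in NestinCre EAE 1 to 4. NestinCre EAE 1 to 3 thus stood apart, and NestinCre EAE 4 was level with fl EAE 3. Phagocytes were themselves rich in member RNA, with 2.79 member UMIs for each marker UMI over the 8 EAE libraries. Neutrophil markers moved likewise, at 7.84, 5.96, 9.12 and 6.09 CPM in granule cells of fl EAE 1 to 4 and 78.5, 32.8, 40.7 and 12.6 CPM in those of NestinCre EAE 1 to 4. The number of members higher in each class is therefore also given after the phagocyte profile was taken off, scaled to the marker UMIs found there. Counts by role and values of single members are as measured. In sums of nuclei, more RNA per cell and more cells of a state cannot be told apart.

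At day 10 members were higher in NestinCre EAE than in fl EAE in microglia, mature oligodendrocytes, astrocytes and oligodendrocyte progenitor cells (OPC). In Bergmann glia 4 were higher, and 0 without NestinCre EAE 1. Members were also higher in granule cells, molecular layer interneurons and inhibitory neurons, with 28, 4 and 1 members. After the phagocyte profile was taken off 1, 1 and 0 were called, and in granule cells 0 were called without fl EAE 1. In granule cells of NestinCre EAE 1 to 3 and interneurons of NestinCre EAE 1 and 3 the profile exceeded all member UMIs. The loss of calls in these 2 classes was thus largely set by that step and cannot decide whether members were higher. Over the 12 classes with enough nuclei, 281 member and class pairs were tested with edgeR's quasi-likelihood test on sums per library, with run in the model and Benjamini-Hochberg adjustment over all genes of a class. Of these, 132 were higher in NestinCre EAE, against 0.831% of all gene tests, 0 were lower and 274 had a positive log2 fold change. With the profile taken off 82 of the 262 pairs still tested were higher, against 0.462% of all gene tests. With the neutrophil profile taken off as well there were 78, against 0.459%. In microglia and granule cells 43 of 43 members passed the UMI minimum. Elsewhere a member could pass through its level in NestinCre EAE alone, so the counts there describe the members that passed. All log2 fold changes are given ± SE from 4 against 4 samples. This SE is the absolute log2 fold change divided by the square root of the test's F statistic. The plot of summed levels shows immune and vascular classes high and neurons low.

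**Figure D1:**
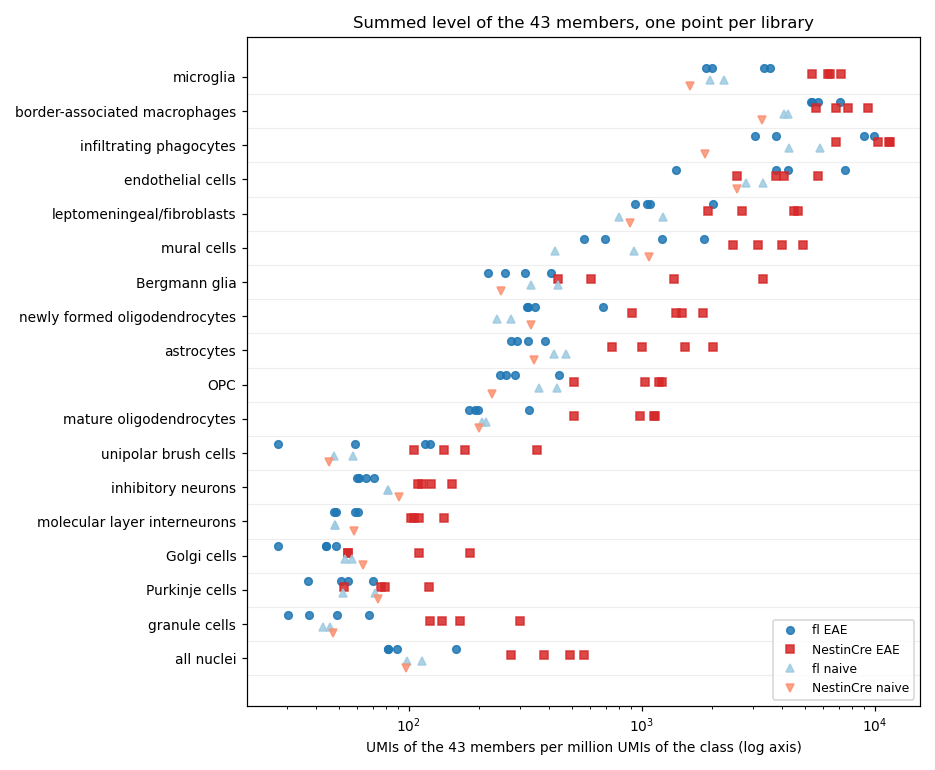
Summed CPM of the 43 members in each class (log axis), 1 point per library, coloured by group. Microglia ran from 1891 to 3558 CPM in fl EAE and from 5378 to 7136 CPM in NestinCre EAE. Granule cells ran from 30.3 to 67.5 and from 123.2 to 301.5 CPM.

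In microglia, the resident phagocytes of the brain, the summed level was 2006, 1891, 3558 and 3343 CPM in fl EAE 1 to 4 and 6421, 5378, 7136 and 6332 CPM in NestinCre EAE 1 to 4. The mean rose from 2700 ± 873 to 6317 ± 722 CPM (SD, n = 4 each), or 2.34 times, and the groups did not overlap. Of 43 members 34 were higher and 0 lower, against 3.45% of all genes higher. In 33 of 43 members every NestinCre EAE value lay above every fl EAE value, against 5.73% of genes, and in 29 with the profile taken off, against 5.53%. The median log2 fold change was 1.33, against a median near 0 for all genes. The lone NestinCre EAE sample of run 2 lay above its run 2 counterpart in 42 of 43 members, as it did in 57.6% of all microglial genes.

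All 5 oligoadenylate synthetase genes were higher in microglia. The family is known for sensing double-stranded RNA, and its catalytic members make the messenger that activates RNase L. Oasl1 was at 0, 0, 4.28 and 6.73 CPM in fl EAE 1 to 4 and 40.4, 31.8, 91.4 and 38.4 CPM in NestinCre EAE 1 to 4 (log2 fold change 3.80 ± 0.60, edgeR adjusted p = 0.000118). Oas2 was at 0, 0, 10.7 and 16.8 CPM in fl EAE 1 to 4 and 98, 39.7, 124 and 64.3 CPM in NestinCre EAE 1 to 4 (log2 fold change 3.25 ± 0.49, edgeR adjusted p = 7.85e-05). Oas3 was listed at 0, 0, 2.14 and 0 CPM in fl EAE 1 to 4 and 14.4, 2.65, 12.5 and 22.3 CPM in NestinCre EAE 1 to 4, with 1 UMI over fl EAE (ratio of pooled counts 18, counting interval 3.07 to 729, edgeR adjusted p = 0.0199). These genes were low or at 0 in fl EAE microglia and present in each NestinCre EAE library. Of the 5, Oas3 lost its call when the phagocyte profile was taken off.

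Of the Ifit genes, whose products bind foreign RNA ends, 3 of 4 were higher in microglia, the exception being Ifit3b. Ifit2 was at 0, 5.36, 12.8 and 10.1 CPM in fl EAE 1 to 4 and 64.8, 39.7, 129 and 64.3 CPM in NestinCre EAE 1 to 4 (log2 fold change 3.13 ± 0.47, edgeR adjusted p = 8.33e-05). Of 6 replication blockers 5 were higher, and Samd9l, a translation inhibitor, was at 14.8, 0, 10.7 and 3.36 CPM in fl EAE 1 to 4 and 63.4, 50.3, 111 and 75.9 CPM in NestinCre EAE 1 to 4 (log2 fold change 3.28 ± 0.45, edgeR adjusted p = 1.84e-05). Ifi44, a protein of the other induced genes, had 0 UMIs in all fl EAE libraries and 28.8, 13.2, 19.7 and 29.4 CPM in NestinCre EAE 1 to 4. Against a limit of 3 UMIs over the fl EAE group it was at least 9.65-fold higher (edgeR adjusted p = 0.00031). These genes separated the groups, and in the naive libraries Ifit2 was at 5.69 and 6.38 CPM in fl naive 2 and 3 and 6.6 CPM in NestinCre naive 2.

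The most abundant members in microglia moved less. Trim30a, a ubiquitin ligase that restrains innate signalling, was at 257, 246, 392 and 434 CPM in fl EAE 1 to 4 and 674, 629.6, 735 and 706 CPM in NestinCre EAE 1 to 4 (log2 fold change 1.04 ± 0.17, edgeR adjusted p = 0.000198). Parp14, an ADP-ribosyltransferase, was at 98.8, 75, 295 and 215 CPM in fl EAE 1 to 4 and 409, 421, 534 and 478 CPM in NestinCre EAE 1 to 4 (log2 fold change 1.33 ± 0.24, edgeR adjusted p = 0.000766). Epsti1 was at 232, 214, 342 and 373 CPM in fl EAE 1 to 4 and 513, 429, 455 and 478 CPM in NestinCre EAE 1 to 4 (log2 fold change 0.68 ± 0.17, edgeR adjusted p = 0.0164). The groups of all 3 genes were separate, and fl EAE 3 and fl EAE 4 lay above fl EAE 1 and fl EAE 2 in each.

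In the remaining roles of microglia both Mx GTPases, 4 of 4 ADP-ribosylation genes, 4 of 5 sensors, 4 of 5 TRIM genes, 3 of 4 ISG15 conjugation genes and 4 of 8 other induced genes were higher. Phagocyte markers in microglia ran from 10.7 to 29.96 CPM in fl EAE and were at 201.8, 177.2, 145.1 and 36.6 CPM in NestinCre EAE 1 to 4. With the phagocyte profile taken off, 31 of 43 members were still higher, against 3.01% of all genes, and the 3 lost were Oas3, Mx2 and Trim34a. Leaving out fl EAE 1 gave 22 members, and run 1 alone gave 31.

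A cluster of 74 microglia led by interferon-stimulated genes held a median of 18 member UMIs per nucleus, against 5 in the other 2325 microglia, and its nuclei were deeper, with a median of 2791.5 UMIs in all against 1813. The members led this cluster by its construction. It held 1, 0, 12 and 0 nuclei of fl EAE 1 to 4 and 5, 6, 13 and 33 of NestinCre EAE 1 to 4. Per 1000 microglia outside it there were 3276, 3330, 6431 and 8496 member UMIs in fl EAE 1 to 4, and 18740, 9696, 14050 and 14470 for NestinCre EAE 1 to 4, so the groups were separate without these nuclei.

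**Figure D2:**
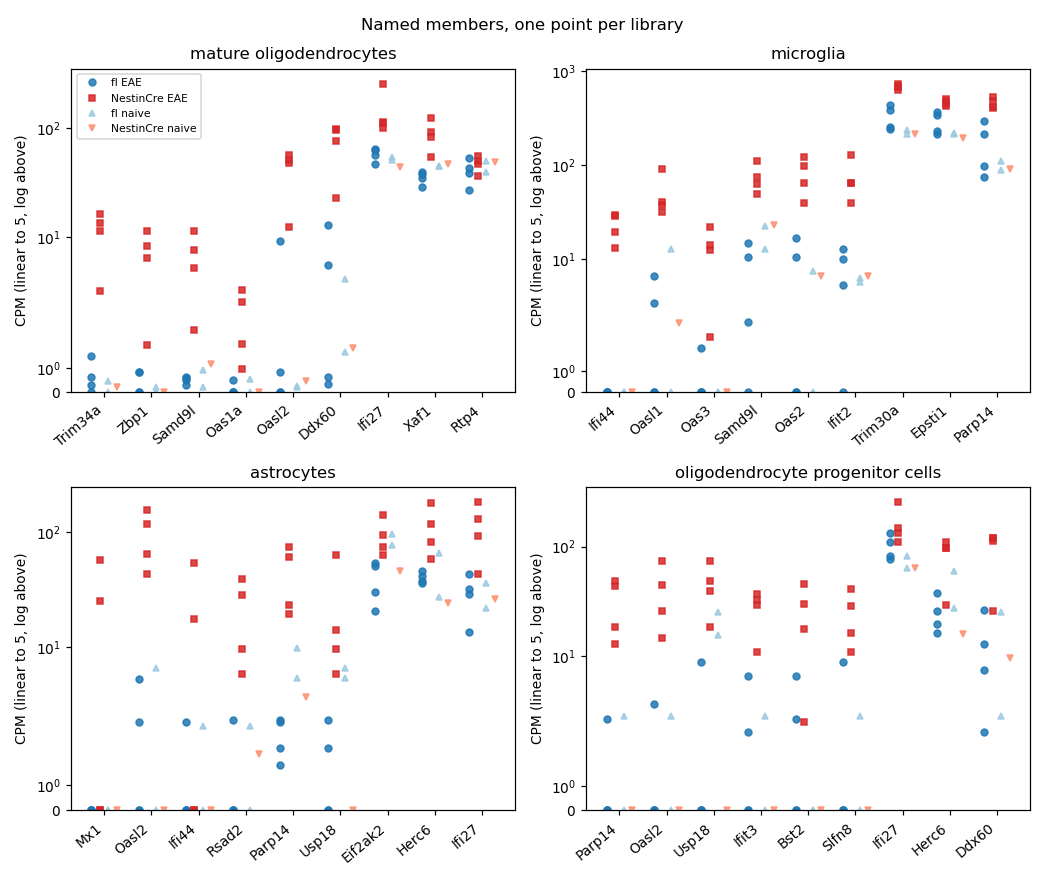
Levels of named members in 4 classes, CPM on an axis that is linear to 5 and logarithmic above, 1 point per library. In mature oligodendrocytes Ddx60 lay at 22.8 to 98.0 CPM in NestinCre EAE and at 0.322 to 12.96 CPM in fl EAE. Rtp4 overlapped between the groups.

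In mature oligodendrocytes, the myelinating cells, the summed level was 192.9, 181.7, 329.3 and 197.8 CPM in fl EAE 1 to 4 and 1138, 510.6, 979.4 and 1127 CPM in NestinCre EAE 1 to 4. The mean rose from 225.4 ± 69.6 to 938.8 ± 294.5 CPM (SD, n = 4 each), or 4.16 times. Of the 40 members that passed the UMI minimum 31 were higher and 0 lower, against 1.64% of genes higher. In 34 of 40 the groups did not overlap, against 4.08% of genes, and in 19 with the profile taken off, against 2.63%. The median log2 fold change was 2.86.

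Of the sensors of foreign nucleic acid and of the TRIM genes 4 of 5 each were higher in mature oligodendrocytes, the exceptions being Dhx58 and Trim30d. Ddx60, an RNA helicase, was at 0.322, 0.625, 12.96 and 5.65 CPM in fl EAE 1 to 4 and 94.8, 22.8, 75.8 and 98 CPM in NestinCre EAE 1 to 4 (log2 fold change 3.58 ± 0.55, edgeR adjusted p = 0.00267). Zbp1, which binds Z-form nucleic acid and can start cell death, was at 0, 0, 0.831 and 0.848 CPM in fl EAE 1 to 4 and 11.6, 1.92, 6.49 and 8.39 CPM in NestinCre EAE 1 to 4 (log2 fold change 3.72 ± 0.65, edgeR adjusted p = 0.00639). Trim34a was at 0.644, 0.313, 1.5 and 0 CPM in fl EAE 1 to 4 and 16.2, 4.17, 13.6 and 11.4 CPM in NestinCre EAE 1 to 4 (log2 fold change 3.91 ± 0.55, edgeR adjusted p = 0.00176). The call of Zbp1 was lost with the phagocyte profile taken off, and those of Ddx60 and Trim34a were kept. All 3 genes had most of their fl EAE UMIs in fl EAE 3 or fl EAE 4, and NestinCre EAE 2 was the lowest of its group.

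Oasl2 in mature oligodendrocytes was at 0, 0, 9.31 and 0.848 CPM in fl EAE 1 to 4 and 56.1, 12.5, 51 and 48.1 CPM in NestinCre EAE 1 to 4 (log2 fold change 3.61 ± 0.65, edgeR adjusted p = 0.00769). Oas1a had 3 UMIs over fl EAE, all in fl EAE 3, and 1.98, 0.962, 3.71 and 4.2 CPM in NestinCre EAE 1 to 4 (ratio of pooled counts 16.6, counting interval 5.37 to 82.8, edgeR adjusted p = 0.022). Samd9l was at 0.644, 0.313, 0.499 and 0.565 CPM in fl EAE 1 to 4 and 11.6, 2.56, 7.73 and 5.21 CPM in NestinCre EAE 1 to 4 (log2 fold change 3.66 ± 0.54, edgeR adjusted p = 0.00229). As measured, every NestinCre EAE library lay above every fl EAE library in these genes, but their calls were all lost with the phagocyte profile taken off.

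The members with most UMIs in mature oligodendrocytes were already present without EAE. Ifi27, a membrane protein of mitochondria and nuclei, was at 56, 47.2, 62.5 and 63.9 CPM in fl EAE 1 to 4 and 112, 99.4, 109.8 and 250.9 CPM in NestinCre EAE 1 to 4 (log2 fold change 1.20 ± 0.15, edgeR adjusted p = 0.00105), with 54.3 and 51.4 CPM in fl naive 2 and 3 and 43.9 CPM in NestinCre naive 2. Xaf1, a partner of apoptosis regulators, was at 38, 35, 39.2 and 29.1 CPM in fl EAE 1 to 4 and 91.1, 54.2, 82 and 123 CPM in NestinCre EAE 1 to 4 (log2 fold change 1.27 ± 0.18, edgeR adjusted p = 0.00212). Rtp4, a chaperone of receptors, was at 39, 42.8, 53 and 27.1 CPM in fl EAE 1 to 4 and 49.9, 36.2, 46.7 and 55.7 CPM in NestinCre EAE 1 to 4 and did not pass (log2 fold change 0.22 ± 0.17, edgeR adjusted p = 0.76). So Ifi27 and Xaf1 separated the groups with NestinCre EAE 4 highest, while Rtp4 overlapped.

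All 4 Ifit genes, 4 of 4 ISG15 conjugation genes (Isg15, Usp18, Herc6 and Uba7) and 4 of 4 ADP-ribosylation genes were higher in mature oligodendrocytes. ISG15 is a ubiquitin-like tag, Uba7 and Herc6 attach it and Usp18 removes it. In other roles, 4 of 6 replication blockers, 4 of 7 other induced genes and 1 of 2 Mx genes were higher. Phagocyte markers were at 8.05, 7.19, 16.3 and 7.63 CPM in fl EAE 1 to 4 and 160.5, 67.95, 103.9 and 20.2 CPM in NestinCre EAE 1 to 4. Members numbered 7.09, 7.51, 9.43 and 55.7 per marker UMI in NestinCre EAE 1 to 4, against 2.34, 2.99, 2.80 and 4.21 in the phagocytes of the same libraries. In mature oligodendrocytes of fl EAE 1 to 4 they numbered 23.96, 25.26, 20.21 and 25.93, above NestinCre EAE 1 to 3. With the profile taken off, 20 of the 36 members still tested were higher, against 0.788% of all genes. The 11 lost were Ifit2, Oasl2, Oas1a, Isg15, Ifih1, Zbp1, Samd9l, Slfn5, Trim30a, Parp14 and Dtx3l, so that not all Ifit, ISG15 conjugation or ADP-ribosylation genes passed then. After removal of both profiles 18 were higher. Run 1 alone gave 28.

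In astrocytes the summed level was 291.1, 325.6, 383.8 and 275.1 CPM in fl EAE 1 to 4 and 997.8, 747.9, 2022 and 1536 CPM in NestinCre EAE 1 to 4. The mean rose from 318.9 ± 48.1 to 1326 ± 568.8 CPM (SD, n = 4 each), with no overlap. Of the 30 members that passed the minimum 20 were higher and 0 lower, against 0.606% of genes higher, and in 15 of 30 the groups did not overlap, against 1.88% of genes. The latter count was 13 with the profile taken off, against 1.8%. The median log2 fold change was 2.54, also with Mx1, which had 0 UMIs in fl EAE, set to its lower bound.

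Oasl2 in astrocytes was at 3.42, 0, 5.28 and 0 CPM in fl EAE 1 to 4 and 64.2, 43.4, 156 and 117 CPM in NestinCre EAE 1 to 4 (log2 fold change 5.31 ± 0.52, edgeR adjusted p = 7.12e-10). Parp14 was at 3.42, 2.43, 3.52 and 1.79 CPM in fl EAE 1 to 4 and 23.3, 19.3, 60.4 and 74.5 CPM in NestinCre EAE 1 to 4 (log2 fold change 3.95 ± 0.54, edgeR adjusted p = 3.2e-06). Herc6, the main ISG15 ligase of the mouse, was at 37.7, 41.3, 45.8 and 35.7 CPM in fl EAE 1 to 4 and 81.7, 57.9, 178 and 117 CPM in NestinCre EAE 1 to 4 (log2 fold change 1.49 ± 0.28, edgeR adjusted p = 0.000873). Every NestinCre EAE library exceeded every fl EAE library in these genes.

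Ifi27 in astrocytes was at 13.7, 29.2, 31.7 and 42.9 CPM in fl EAE 1 to 4 and 128, 43.4, 92.2 and 181 CPM in NestinCre EAE 1 to 4 (log2 fold change 1.82 ± 0.29, edgeR adjusted p = 8.1e-05). Eif2ak2, the kinase PKR that halts translation on double-stranded RNA, was at 20.6, 53.5, 51.1 and 30.4 CPM in fl EAE 1 to 4 and 93.4, 62.7, 139.9 and 74.5 CPM in NestinCre EAE 1 to 4 (log2 fold change 1.24 ± 0.28, edgeR adjusted p = 0.015). Both genes separated the groups, Ifi27 narrowly. Eif2ak2 was at 76.4 and 95.7 CPM in fl naive 2 and 3 and 46.2 CPM in NestinCre naive 2, so that the fl naive libraries lay inside its NestinCre EAE range.

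The other members with large fitted changes in astrocytes rested on few UMIs. Mx1, of the Mx GTPases, was listed at 0 in fl EAE and at 0, 0, 25.4 and 56.8 CPM in NestinCre EAE 1 to 4, at least 15.03-fold higher against a limit of 3 UMIs over fl EAE (edgeR adjusted p = 0.0011). Ifi44 was at 3.42, 0, 0 and 0 CPM in fl EAE 1 to 4 and 0, 0, 54 and 17.7 CPM in NestinCre EAE 1 to 4 (ratio of pooled counts 41.3, counting interval 6.68 to 1705, edgeR adjusted p = 0.011). Rsad2, or viperin, which produces a chain-terminating nucleotide, was at 0, 0, 3.52 and 0 CPM in fl EAE 1 to 4 and 5.83, 9.65, 28.6 and 39 CPM in NestinCre EAE 1 to 4 (ratio of pooled counts 21.6, counting interval 5.34 to 189, edgeR adjusted p = 0.00352). Usp18 was at 0, 2.43, 3.52 and 0 CPM in fl EAE 1 to 4 and 5.83, 9.65, 63.6 and 14.2 CPM in NestinCre EAE 1 to 4 (ratio of pooled counts 16.9, counting interval 5.2 to 87.1, edgeR adjusted p = 0.00344). Mx1 and Ifi44 had no UMI in NestinCre EAE 1 and 2, so their difference rested on NestinCre EAE 3 and 4.

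With the phagocyte profile taken off, 18 of the 30 members were still higher in astrocytes, against 0.487% of all genes. The calls lost were those of Ifi35 and Samd9l. DESeq2 called 10 and the filterByExpr limit of edgeR left 11. The count fell to 8 without NestinCre EAE 3, to 11 without NestinCre EAE 4 and to 13 without fl EAE 4, and run 1 alone gave 12. Astrocytes numbered only 49 to 186 nuclei per EAE library. All 30 members were higher in NestinCre EAE 4 than in fl EAE 4, as were 54.7% of all astrocyte genes. Phagocyte markers were at 17.7 and 8.93 CPM in these libraries.

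In OPC the summed level was 285.6, 260.8, 440.5 and 246.1 CPM in fl EAE 1 to 4 and 1032, 510.7, 1184 and 1216 CPM in NestinCre EAE 1 to 4. Of the 23 members that passed the minimum 10 were higher and 0 lower, against 0.655% of genes higher, and in 9 of 23 the groups did not overlap, against 2.08% of genes, or 6 with the profile taken off, against 2% of genes. Herc6 was at 37.6, 16.1, 19.7 and 25.9 CPM in fl EAE 1 to 4 and 97.3, 29.2, 96.5 and 109 CPM in NestinCre EAE 1 to 4 (log2 fold change 1.81 ± 0.32, edgeR adjusted p = 0.000469). Ddx60 was at 7.51, 3.22, 26.3 and 12.9 CPM in fl EAE 1 to 4 and 120, 25.5, 119 and 114 CPM in NestinCre EAE 1 to 4 (log2 fold change 2.76 ± 0.39, edgeR adjusted p = 8.33e-06). In both genes NestinCre EAE 2 was far below the other 3 of its group and within the fl EAE range.

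Usp18 in OPC was at 0, 0, 8.77 and 0 CPM in fl EAE 1 to 4 and 48.7, 18.2, 74.2 and 39.3 CPM in NestinCre EAE 1 to 4 (log2 fold change 3.88 ± 0.60, edgeR adjusted p = 4.8e-05). Oasl2 was at 0, 0, 4.38 and 0 CPM in fl EAE 1 to 4 and 25.9, 14.6, 44.5 and 74.2 CPM in NestinCre EAE 1 to 4 (ratio of pooled counts 31.4, counting interval 8.31 to 266, edgeR adjusted p = 1.39e-05). Parp14 was at 3.76, 0, 0 and 0 CPM in fl EAE 1 to 4 and 12.98, 18.2, 48.2 and 43.7 CPM in NestinCre EAE 1 to 4 (ratio of pooled counts 45.5, counting interval 7.73 to 1839, edgeR adjusted p = 9.36e-05). These genes separated the groups, although fl naive 2 and 3 held Usp18 at 25.5 and 15.6 CPM.

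Ifit3 in OPC was at 0, 3.22, 6.57 and 0 CPM in fl EAE 1 to 4 and 29.2, 10.9, 37.1 and 32.8 CPM in NestinCre EAE 1 to 4 (log2 fold change 3.18 ± 0.64, edgeR adjusted p = 0.00317). Slfn8 was at 0, 0, 8.77 and 0 CPM in fl EAE 1 to 4 and 16.2, 10.9, 40.8 and 28.4 CPM in NestinCre EAE 1 to 4 (log2 fold change 2.98 ± 0.69, edgeR adjusted p = 0.0186). Bst2, or tetherin, which holds budding virions at the membrane, was at 3.76, 0, 6.57 and 0 CPM in fl EAE 1 to 4 and 45.4, 3.65, 29.7 and 17.5 CPM in NestinCre EAE 1 to 4 (log2 fold change 3.02 ± 0.70, edgeR adjusted p = 0.0195). Ifi27, the most abundant member in OPC, was at 82.7, 109.5, 134 and 77.7 CPM in fl EAE 1 to 4 and 133, 149.6, 111 and 255 CPM in NestinCre EAE 1 to 4 and did not pass (log2 fold change 0.68 ± 0.21, edgeR adjusted p = 0.224). Bst2 and Ifi27 overlapped between the groups, and Ifit3 and Slfn8 did not.

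With the profile taken off 8 of 23 members were higher in OPC, against 0.55% of all genes, and the calls of Slfn8 and Eif2ak2 were lost. DESeq2 called 4. Leaving out fl EAE 1, fl EAE 2, fl EAE 4 or NestinCre EAE 4 each gave 6, and so did run 1 alone. NestinCre EAE 4 held 4 phagocyte marker UMIs in OPC, as many as fl EAE 2 and fl EAE 4, and had the highest summed member level of all OPC samples. Mature oligodendrocytes and microglia held 32.84% and 26.29% of the member UMIs of NestinCre EAE 4, and RNA carried over from them was not tested.

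In Bergmann glia, the radial astrocytes of the cerebellar cortex, 4 of the 19 members that passed were higher and 0 lower, against 0.212% of genes higher. Oasl2 was at 12.2, 7.38, 9.18 and 0 CPM in fl EAE 1 to 4 and 169, 9.71, 74.4 and 6.19 CPM in NestinCre EAE 1 to 4 (log2 fold change 3.16 ± 0.67, edgeR adjusted p = 0.0227). Ddx60 was at 0, 29.5, 9.18 and 32.5 CPM in fl EAE 1 to 4 and 480.4, 19.4, 256 and 12.4 CPM in NestinCre EAE 1 to 4 (log2 fold change 2.79 ± 0.60, edgeR adjusted p = 0.0239). Trim30a was at 0, 11.1, 4.59 and 0 CPM in fl EAE 1 to 4 and 169, 0, 57.9 and 24.8 CPM in NestinCre EAE 1 to 4 (log2 fold change 3.75 ± 0.78, edgeR adjusted p = 0.0166). In these genes NestinCre EAE 1 and 3 were high. NestinCre EAE 2 and 4 lay within the fl EAE range, apart from Trim30a in NestinCre EAE 4, which lay above it.

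Ifi27 in Bergmann glia was at 54.9, 62.7, 55.1 and 60.6 CPM in fl EAE 1 to 4 and 249, 87.4, 157 and 192 CPM in NestinCre EAE 1 to 4 and separated the groups (log2 fold change 1.52 ± 0.30, edgeR adjusted p = 0.0114). Herc6 was at 48.8, 40.6, 27.6 and 28.2 CPM in fl EAE 1 to 4 and 267, 19.4, 66.2 and 24.8 CPM in NestinCre EAE 1 to 4 and did not pass (log2 fold change 1.23 ± 0.48, edgeR adjusted p = 0.601). Without NestinCre EAE 1 no member was called, without fl EAE 1, 2 or 3 only 1 was, and without NestinCre EAE 2 there were 8. Taking off the phagocyte profile left 3 members higher, against 0.202% of all genes, and ended the call of Oasl2. DESeq2 called 1.

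In granule cells, the most numerous neurons, 28 of 43 members were higher and 0 lower, against 1.53% of genes higher. In 31 of 43 the groups did not overlap, against 3.97% of genes, or in 8 with the phagocyte profile taken off, against 1.94%, and the median log2 fold change was 2.28. The summed level was 37.2, 49.3, 67.5 and 30.3 CPM in fl EAE 1 to 4 and 301.5, 123.2, 165.1 and 139.2 CPM in NestinCre EAE 1 to 4. In every library this was below the microglial level.

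The markers of phagocytes and neutrophils given above were highest in NestinCre EAE 1, as was the summed member level of granule cells. The order was not the same throughout: NestinCre EAE 4 held more member RNA than NestinCre EAE 2, with less of both marker sets. In NestinCre EAE 1 to 3 granule cells held 1.99, 1.81 and 1.67 member UMIs per phagocyte marker UMI, below the 2.34, 2.99 and 2.80 of the phagocytes themselves, and in NestinCre EAE 4 they held 6.89 against 4.21. With the profile taken off, 1 of the 30 members still tested, Ifi27l2a, was higher, against 0.0377% of all genes. With the neutrophil profile taken off as well, 1 of 24 was higher. The summed level after the first step was 26.8, 39.0, 38.4 and 17.4 CPM in fl EAE 1 to 4 and 105.0, 39.8, 60.8 and 98.5 CPM in NestinCre EAE 1 to 4. That step took off 2.79 member UMIs per marker UMI, more than granule cells of NestinCre EAE 1 to 3 held. With genes set to 0 at the lowest, the levels left do not measure member RNA without phagocyte RNA. The step therefore cannot decide whether granule cell members were higher. NestinCre EAE 4, whose marker level of 20.2 CPM was close to the 20.5 CPM of fl EAE 3, had 139.2 CPM of members against 67.5. The count also rested on single libraries: it was 0 without fl EAE 1, 1 without fl EAE 2, 9 without NestinCre EAE 1 and 11 without NestinCre EAE 3. With the replicate number as a block it was 5, and run 1 alone gave 23.

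**Figure D3:**
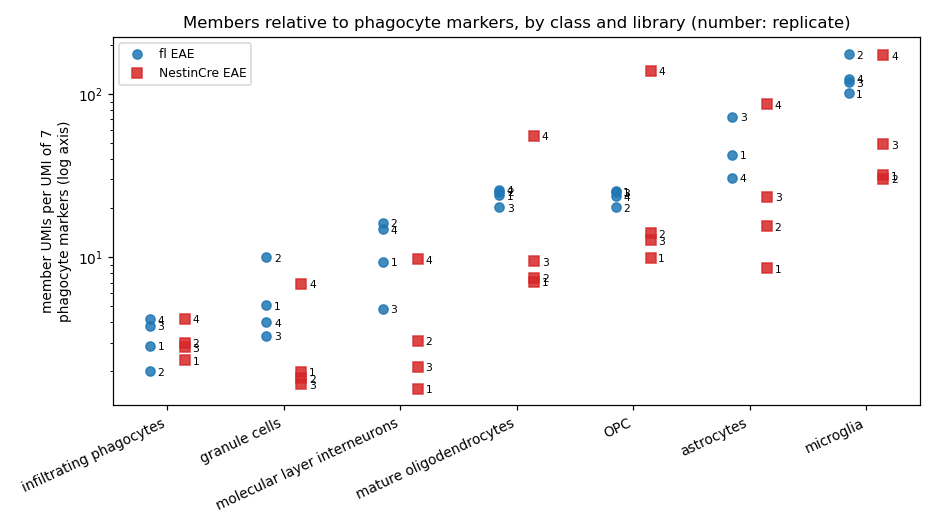
Member UMIs per UMI of 7 phagocyte markers (log axis) in each class, 1 point per EAE library with its replicate number. In granule cells and molecular layer interneurons NestinCre EAE 1 to 3 lay at 1.57 to 3.08, where the phagocytes lay at 2.34 to 2.99. Mature oligodendrocytes, OPC, astrocytes and microglia lay at 7.09 or more in every NestinCre EAE library.

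Single granule cell members follow. Oasl2 was at 0.0999, 0.703, 1.06 and 0.176 CPM in fl EAE 1 to 4 and 20.6, 3.85, 4.12 and 3.07 CPM in NestinCre EAE 1 to 4 (log2 fold change 3.96 ± 0.71, edgeR adjusted p = 0.025). Ifit1 was at 0.25, 0.414, 1.3 and 0.101 CPM in fl EAE 1 to 4 and 9.56, 2.23, 2.75 and 2.86 CPM in NestinCre EAE 1 to 4 (log2 fold change 3.23 ± 0.63, edgeR adjusted p = 0.0368). Ddx60 was at 0.0999, 0.496, 0.555 and 0.302 CPM in fl EAE 1 to 4 and 7.22, 1.43, 2.09 and 1.88 CPM in NestinCre EAE 1 to 4 (log2 fold change 3.04 ± 0.61, edgeR adjusted p = 0.0391). NestinCre EAE 1 was by far the highest in each.

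Ifi27l2a in granule cells was at 0.7, 0.579, 2.78 and 0.78 CPM in fl EAE 1 to 4 and 15.8, 9.93, 14.8 and 13.6 CPM in NestinCre EAE 1 to 4 (log2 fold change 3.51 ± 0.41, edgeR adjusted p = 0.0101) and was more even across NestinCre EAE. Zbp1 was at 0.05, 0.0827, 1.06 and 0.201 CPM in fl EAE 1 to 4 and 4.67, 2.61, 3.11 and 1.32 CPM in NestinCre EAE 1 to 4 (log2 fold change 3.01 ± 0.60, edgeR adjusted p = 0.0385). Ifi44 was at 0.0999, 0, 0 and 0.0503 CPM in fl EAE 1 to 4 and 0.778, 0.237, 0.777 and 0.555 CPM in NestinCre EAE 1 to 4 (log2 fold change 3.74 ± 0.72, edgeR adjusted p = 0.0346). All 3 genes separated the groups at levels of at most 15.8 CPM.

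The members with most UMIs in granule cells did not pass. Ifi27 was at 4.85, 6, 10.3 and 2.89 CPM in fl EAE 1 to 4 and 11.2, 10.02, 9.98 and 23.1 CPM in NestinCre EAE 1 to 4 (log2 fold change 1.13 ± 0.38, edgeR adjusted p = 0.305). Eif2ak2 was at 4.45, 7.7, 4.21 and 4 CPM in fl EAE 1 to 4 and 29, 5.18, 13.9 and 5.85 CPM in NestinCre EAE 1 to 4 (log2 fold change 1.31 ± 0.48, edgeR adjusted p = 0.379). Parp9 was at 3.4, 4.67, 2.82 and 2.89 CPM in fl EAE 1 to 4 and 24.8, 4.65, 11.2 and 4.91 CPM in NestinCre EAE 1 to 4 (log2 fold change 1.62 ± 0.48, edgeR adjusted p = 0.202). Ifi27 was highest in NestinCre EAE 4, and Eif2ak2 and Parp9 were high in NestinCre EAE 1 and 3 and near the fl EAE range in NestinCre EAE 2 and 4.

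In molecular layer interneurons 4 of the 21 members that passed were higher and 0 lower, against 0.4% of genes higher. In 8 of 21 the groups did not overlap, against 1.97% of genes, or in 4 with the phagocyte profile taken off, against 1.58%. The mean summed level rose from 53.9 ± 6.84 CPM in fl EAE to 114.7 ± 18.4 CPM in NestinCre EAE (SD, n = 4 each), with no overlap. Ifit3 had 0 UMIs in fl EAE and was at 4.61, 1.08, 2.28 and 3 CPM in NestinCre EAE 1 to 4, at least 9.51-fold higher against a limit of 3 UMIs over fl EAE (edgeR adjusted p = 0.0227). It was at 0 and 0.403 CPM in fl naive 2 and 3 and at 1.8 CPM in NestinCre naive 2, which lay inside the NestinCre EAE range. Bst2 was at 0, 0, 0.809 and 0 CPM in fl EAE 1 to 4 and 6.15, 1.08, 3.8 and 8.09 CPM in NestinCre EAE 1 to 4 (ratio of pooled counts 27.3, counting interval 7.15 to 232, edgeR adjusted p = 0.0123). Ifi27l2a was at 1.03, 0, 1.21 and 1.17 CPM in fl EAE 1 to 4 and 7.68, 8.1, 4.56 and 6 CPM in NestinCre EAE 1 to 4 (log2 fold change 2.83 ± 0.49, edgeR adjusted p = 0.00703). These genes separated the groups as measured.

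Isg15 in molecular layer interneurons was at 1.03, 0, 2.02 and 0 CPM in fl EAE 1 to 4 and 4.1, 7.56, 6.08 and 2.7 CPM in NestinCre EAE 1 to 4 (log2 fold change 2.74 ± 0.60, edgeR adjusted p = 0.0422). The 3 most abundant members did not pass: Rtp4 was at 14.4, 17.2, 17 and 18.7 CPM in fl EAE 1 to 4 and 18.9, 15.7, 13.7 and 18.6 CPM in NestinCre EAE 1 to 4 (log2 fold change 0.01 ± 0.19, edgeR adjusted p = 0.995). Ifi27 was at 2.58, 4.53, 5.26 and 2.33 CPM in fl EAE 1 to 4 and 8.71, 4.32, 5.32 and 16.2 CPM in NestinCre EAE 1 to 4 (log2 fold change 1.31 ± 0.39, edgeR adjusted p = 0.245), and Dhx58, the helicase LGP2, at 9.28, 4.08, 3.64 and 3.79 CPM in fl EAE 1 to 4 and 2.56, 9.18, 10.6 and 4.8 CPM in NestinCre EAE 1 to 4 (log2 fold change 0.37 ± 0.39, edgeR adjusted p = 0.933). The number higher was 1 of the 19 still tested with the phagocyte profile taken off, against 0.0951% of all genes. Interneurons of NestinCre EAE 1 and 3 held 1.57 and 2.13 member UMIs per phagocyte marker UMI, fewer than the 2.79 taken off. Bst2 kept its call, and Ifit3, Ifi27l2a and Isg15 lost theirs. The count was 1 without fl EAE 1, fl EAE 2, fl EAE 4 or NestinCre EAE 4, 2 without NestinCre EAE 1, and 1 in run 1 alone.

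In inhibitory neurons outside the molecular layer 1 of the 28 members that passed was higher and 0 lower, against 0.0818% of genes higher. It was Oasl2, at 0, 0.882, 1.7 and 0 CPM in fl EAE 1 to 4 and 10.9, 6.03, 3.75 and 5.26 CPM in NestinCre EAE 1 to 4 (log2 fold change 3.03 ± 0.57, edgeR adjusted p = 0.0366). The most abundant members were Rtp4 at 7.12, 7.5, 9.05 and 8.58 CPM in fl EAE 1 to 4 and 16.3, 11.5, 6.44 and 10.1 CPM in NestinCre EAE 1 to 4 (log2 fold change 0.44 ± 0.27, edgeR adjusted p = 0.901) and Eif2ak2 at 7.12, 8.82, 7.07 and 6.78 CPM in fl EAE 1 to 4 and 6.43, 10.4, 15.6 and 7.29 CPM in NestinCre EAE 1 to 4 (log2 fold change 0.40 ± 0.27, edgeR adjusted p = 0.923). Ifi27 was at 5.59, 7.06, 5.09 and 2.26 CPM in fl EAE 1 to 4 and 8.41, 11.5, 3.22 and 14.98 CPM in NestinCre EAE 1 to 4 (log2 fold change 0.97 ± 0.37, edgeR adjusted p = 0.766). Of the genes named here only Oasl2 separated the groups. In 9 of all 28 members the groups did not overlap, against 1.54% of genes, or in 2 with the phagocyte profile taken off, against 1.29%. The mean summed level rose from 64.3 ± 4.97 CPM in fl EAE to 125.8 ± 19.8 CPM in NestinCre EAE (SD, n = 4 each), with no overlap. With the phagocyte profile taken off 0 members were higher in these neurons and the 4 classes that follow together, and the same held without fl EAE 1, 2 or 4 or NestinCre EAE 1 or 4.

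The remaining classes gave no call by edgeR. In leptomeningeal cells or fibroblasts 0 of 25 members passed the test, against 0.407% of genes higher, with a median log2 fold change of 1.37 and 14 to 32 nuclei per EAE library. Ddx60 there was at 79.9, 77.3, 135 and 19.5 CPM in fl EAE 1 to 4 and 269.9, 154, 379 and 104 CPM in NestinCre EAE 1 to 4 (log2 fold change 1.65 ± 0.43, edgeR adjusted p = 0.096), Parp14 at 66.6, 64.4, 135 and 48.7 CPM in fl EAE 1 to 4 and 249, 353, 345 and 59.4 CPM in NestinCre EAE 1 to 4 (log2 fold change 1.60 ± 0.42, edgeR adjusted p = 0.0965), and Ifi27 at 93.2, 90.2, 270.2 and 127 CPM in fl EAE 1 to 4 and 166, 44.1, 138 and 193 CPM in NestinCre EAE 1 to 4 (log2 fold change 0.03 ± 0.44, edgeR adjusted p = 0.996). Ddx60 and Parp14 were above fl EAE in NestinCre EAE 1 to 3 and within its range in NestinCre EAE 4. Golgi cells had 0 of 3 members higher, against 0.0178% of genes, Purkinje cells 0 of 5, against 0%, and unipolar brush cells 0 of 1, against 0.0419%. In Purkinje cells Parp9, which partners Dtx3l in ADP-ribosylation, was at 15.6, 20.5, 19.7 and 11.7 CPM in fl EAE 1 to 4 and 31.2, 9.45, 12.6 and 30.7 CPM in NestinCre EAE 1 to 4 (log2 fold change 0.46 ± 0.39, edgeR adjusted p = 1), and Oas2 and Eif2ak2 had 30 and 31 UMIs in all. In Golgi cells Eif2ak2, Rtp4 and Dhx58 had 20 to 30 UMIs and overlapped. In unipolar brush cells Eif2ak2 was at 6.5, 19, 26.2 and 7.82 CPM in fl EAE 1 to 4 and 38, 22.1, 80.3 and 48.7 CPM in NestinCre EAE 1 to 4 (log2 fold change 1.80 ± 0.61, edgeR adjusted p = 0.842).

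Other classes had too few nuclei for a test and are described only. Infiltrating phagocytes held 3756, 3076, 9955 and 8993 CPM of members in fl EAE 1 to 4 and 10340, 11580, 11510 and 6853 CPM in NestinCre EAE 1 to 4, and neutrophils 5010, 2920, 18670 and 12670 against 15130, 16700, 15390 and 6244 CPM. Border-associated macrophages, with 9 to 22 nuclei per EAE library, were at 5343, 7127, 5702 and 5384 against 6826, 5577, 9377 and 7716 CPM. Endothelial cells, with at most 11 nuclei per EAE library, were at 1401, 4261, 3773 and 7468 against 5703, 2558, 4093 and 3756 CPM. The genotypes overlapped in these classes. T or NK cells, with 2 to 38 nuclei, overlapped as well, at 1082, 2820, 6392 and 3414 against 4096, 3663, 10230 and 4714 CPM. Mural cells, with 2 to 11 nuclei, were at 1843, 1221, 566.2 and 692.2 against 4913, 3983, 3143 and 2457 CPM. Newly formed oligodendrocytes, with 2 to 20 nuclei, were at 347.9, 324.1, 680.5 and 322.2 against 1837, 1490, 907.1 and 1400 CPM. In the latter pair of classes every NestinCre EAE library lay above every fl EAE library.

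Summed over all nuclei of a library, phagocytes included, 39 of 43 members were higher and 0 lower, against 3.17% of genes higher. In 41 of 43 the groups did not overlap, against 5.49% of genes, or in 13 with the phagocyte profile taken off, against 2.51%, and the median log2 fold change was 2.43. The exceptions were Mx1 (edgeR adjusted p = 0.0734), Ifi27 (edgeR adjusted p = 0.105), Rtp4 (edgeR adjusted p = 0.177) and Cmpk2 (edgeR adjusted p = 0.25), a mitochondrial nucleotide kinase next to Rsad2. Of the members, 2 were higher with the phagocyte profile taken off, and of all genes 22 were called in place of 659. Here the profile was scaled to all marker UMIs of a library, so the RNA of the phagocyte nuclei themselves was taken off too. A fall in calls followed from this, and these counts are not a check like those by class. The count was 23 without fl EAE 1, 25 without fl EAE 2 and 24 without NestinCre EAE 3, and 33 in run 1 alone.

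Oasl2 over all nuclei was at 0.373, 0.948, 3.52 and 1.09 CPM in fl EAE 1 to 4 and 33.3, 11.1, 22.1 and 14.2 CPM in NestinCre EAE 1 to 4 (log2 fold change 3.70 ± 0.57, edgeR adjusted p = 0.0111). Oasl1 was at 0.0746, 0.0441, 0.312 and 0.0887 CPM in fl EAE 1 to 4 and 2.57, 1.09, 2.98 and 0.902 CPM in NestinCre EAE 1 to 4 (log2 fold change 3.71 ± 0.52, edgeR adjusted p = 0.0083), and Oas3 at 0, 0.0661, 0.294 and 0.163 CPM in fl EAE 1 to 4 and 2.91, 1.19, 1.7 and 0.564 CPM in NestinCre EAE 1 to 4 (log2 fold change 3.31 ± 0.66, edgeR adjusted p = 0.0281). Ifi44 was at 0.174, 0.0882, 0.22 and 0.103 CPM in fl EAE 1 to 4 and 1.9, 0.94, 2.58 and 1.2 CPM in NestinCre EAE 1 to 4 (log2 fold change 3.44 ± 0.39, edgeR adjusted p = 0.00699). In these genes fl EAE 3 was the highest fl EAE library and still below every NestinCre EAE library.

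Zbp1 over all nuclei was at 0.0995, 0.154, 1.08 and 0.503 CPM in fl EAE 1 to 4 and 8.16, 3.73, 5.67 and 3.54 CPM in NestinCre EAE 1 to 4 (log2 fold change 3.39 ± 0.58, edgeR adjusted p = 0.0152). Ifi27l2a was at 0.696, 0.419, 2.02 and 0.916 CPM in fl EAE 1 to 4 and 13.6, 8.23, 12.7 and 9.51 CPM in NestinCre EAE 1 to 4 (log2 fold change 3.39 ± 0.40, edgeR adjusted p = 0.00699). Of the most abundant members, Herc6 was at 3.51, 4.06, 9.91 and 5.23 CPM in fl EAE 1 to 4 and 34.9, 16.8, 32.4 and 25.4 CPM in NestinCre EAE 1 to 4 (log2 fold change 2.24 ± 0.35, edgeR adjusted p = 0.0111) and Eif2ak2 at 5.82, 8.27, 9.27 and 5.85 CPM in fl EAE 1 to 4 and 31.9, 10.9, 25.1 and 16.1 CPM in NestinCre EAE 1 to 4 (log2 fold change 1.50 ± 0.30, edgeR adjusted p = 0.0292). Ifi27 was at 11.1, 11.1, 16.9 and 8.04 CPM in fl EAE 1 to 4 and 21.2, 18.9, 21.7 and 48.7 CPM in NestinCre EAE 1 to 4 and did not pass (log2 fold change 1.12 ± 0.30, edgeR adjusted p = 0.105).

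Among the 12 classes Oasl2 was higher in 7, Ifit3, Ddx60 and Bst2 in 6, and Trim30a and Parp14 in 5. Ifit1, Usp18, Herc6, Eif2ak2, Rsad2, Samd9l and Ifi27l2a were higher in 4, 14 members in 3 and 12 members in 2. Oas2, Oasl1 and Dhx58 were higher in 1 class, and Cmpk2 in 0. After the phagocyte profile was taken off, Ddx60 and Bst2 were higher in 5 classes, Ifit3, Usp18 and Herc6 in 4, and Oasl2, Trim30a and Parp14 in 3, while Oas3, Isg15 and Cmpk2 were in 0. The 14 were Ifit2, Mx2, Isg15, Ifih1, Zbp1, Slfn5, Slfn8, Trim25, Trim34a, Trim12c, Dtx3l, Ifi27, Ifi44 and Ifi35. The 12 were Ifit3b, Oas1a, Oas3, Mx1, Uba7, Trim30d, Parp9, Zc3hav1, Xaf1, Rtp4, Sp100 and Epsti1.

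The spread over nuclei was examined next. Nuclei with at least 1 member UMI made up 92.1 ± 6.52% of microglia in fl EAE and 99.1 ± 0.449% in NestinCre EAE (SD, n = 4 each). They made up 84.0% and 97.6% once nuclei were thinned to 1000 UMIs. Thinned shares, here and below, leave out nuclei with fewer than 1000 UMIs and so rest on fewer, deeper nuclei. In mature oligodendrocytes they made up 33.5 ± 4.76% and 60.2 ± 13.3%, or 17.1% and 42.5% thinned. In astrocytes they made up 58.0 ± 6.73% and 80.3 ± 14.3%, or 25.7% and 56.0% thinned. Granule cells held them at 9.66 ± 2.61% and 29.3 ± 12.1%, or 4.35% and 16.0% thinned. These shares were not corrected for RNA of phagocytes, whose markers in granule cells ran from 4.92 to 20.5 CPM in fl EAE and from 20.2 to 151.5 CPM in NestinCre EAE, and the part of such RNA in them was not tested. Nuclei with 5 or more member UMIs were 0.205%, 0.211%, 2.97% and 1.42% of mature oligodendrocytes in fl EAE 1 to 4, whereas they were 19.0%, 4.23%, 13.2% and 16.1% in NestinCre EAE 1 to 4. In granule cells they were 0% to 0.0841% in fl EAE and 2.27%, 0.0868%, 0.311% and 0.132% in NestinCre EAE 1 to 4. Such nuclei thus took a larger share of mature oligodendrocytes in every NestinCre EAE library than in any fl EAE library. In granule cells NestinCre EAE 2, at 0.0868%, was level with the highest fl EAE share of 0.0841%. Such nuclei stayed under 0.311% of granule cells outside NestinCre EAE 1 and 3.

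**Figure D4:**
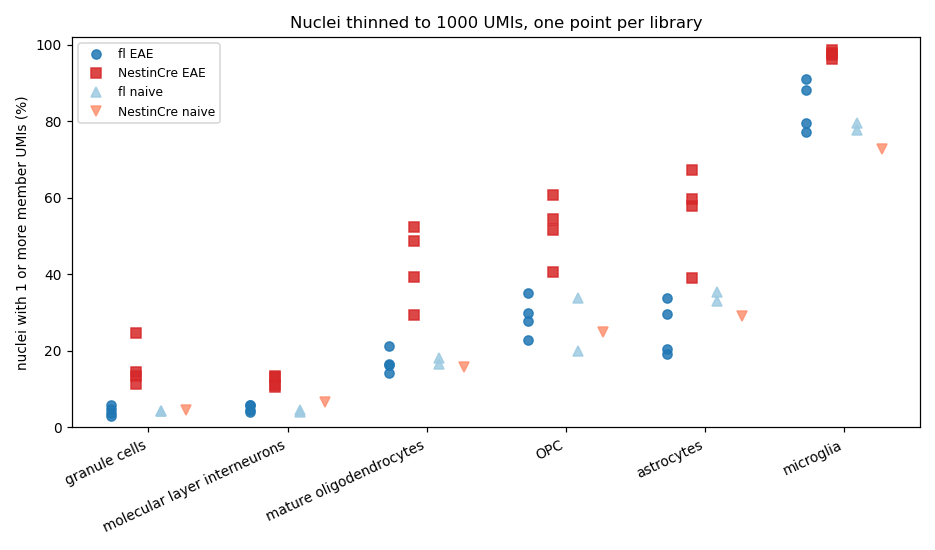
Share of nuclei with at least 1 member UMI (%) after thinning to 1000 UMIs per nucleus, 1 point per library, by class and group. Nuclei with fewer than 1000 UMIs are left out. Mature oligodendrocytes averaged 17.1% in fl EAE and 42.5% in NestinCre EAE, and granule cells 4.35% and 16.0%.

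EAE was next set against the naive state in a fit of all 11 libraries, in which the lone NestinCre naive library was assumed to vary like the others. That library belongs to run 3, which held no EAE library, so the comparison also rests on a run effect estimated through single fl naive libraries. The microglial members Oasl2, Parp9 and Sp100 were the only 3 of 324 member tests to pass for NestinCre EAE against NestinCre naive, where 0.0372% of all gene tests passed in either direction and 0.0796% of microglial genes were higher. The 3 genes were at 262.3, 174.6, 284.9 and 208.9 CPM, 324.3, 301.6, 317.1 and 324.0 CPM and 366.1, 238.1, 387.0 and 356.1 CPM in NestinCre EAE 1 to 4. In NestinCre naive 2 they were at 13.2, 52.8 and 52.8 CPM, below every NestinCre EAE library. At an unadjusted p under 0.05 there were 89 of 324, against 6.11% of all gene tests, and DESeq2 called 6. Without run in the model 30 passed. The count was 0 without fl EAE 1, fl EAE 2 or NestinCre EAE 4, and 5 to 7 without fl EAE 3 or NestinCre EAE 1, 2 or 3.

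For fl EAE against fl naive 0 of 324 member tests passed with edgeR, where 0.0959% of all gene tests did, and DESeq2 called 0. At an unadjusted p under 0.05 there were 21 member tests (6.48%), against 7.48% of all gene tests. The 2 comparisons use different libraries. For NestinCre EAE against naive, with members at 0 in one group set to their bound, the median log2 fold change of members varied by class. It was 0.22 in molecular layer interneurons, 0.25 in leptomeningeal cells or fibroblasts, 0.64 in inhibitory neurons, 1.55 in OPC, 1.93 in granule cells and 2.48 in Bergmann glia. In Golgi, Purkinje and unipolar brush cells, with 3, 5 and 1 members, it was -1.67, 0.71 and 2.82. The median log2 fold change of members in NestinCre EAE against naive was 2.71 in microglia, 2.78 in mature oligodendrocytes, 3.40 in astrocytes and 2.20 over all nuclei, and 1.84, 2.26, 2.24 and 2.20 with members at 0 in one group set to their bound. In fl EAE against fl naive it was 0.57, 0.76, 0.25 and -0.03 in the same order, and 0.57, 0.76, 0.00 and -0.03 at the bounds. The difference between these effects, tested as an interaction, passed for 0 of 324 member tests with edgeR, against 0.00523% of all gene tests, with 1 call by DESeq2. At an unadjusted p under 0.05 there were 111, against 4.75% of all gene tests.

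The naive libraries place these values. The summed level in microglia was 1960 and 2252 CPM in fl naive 2 and 3 and 1611 CPM in NestinCre naive 2. In mature oligodendrocytes it was 214.6, 205.9 and 201.1 CPM, in astrocytes 420.4, 475.2 and 345.5 CPM, and in granule cells 42.96, 46.1 and 47.1 CPM. Every NestinCre EAE library lay above all 3 naive libraries in these classes, whereas fl EAE did not lie on 1 side of them. In microglia fl EAE 1 and 2 lay within the naive range and fl EAE 3 and 4 above it, in mature oligodendrocytes fl EAE 3 lay above it and the other 3 below it, and in granule cells fl EAE 2 and 3 lay above it and fl EAE 1 and 4 below it. In astrocytes fl EAE 3 lay within the range and the other 3 below it.

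The rest of the interferon pathway was read from lists of genes by role. Of 10 interferon ligands, 4 had any UMI: Ifnk with 225, Ifng with 22, Ifna2 with 7 and Ifnb1 with 1. Ifng had 0 UMIs in each fl EAE library, against 1, 6, 11 and 3 for NestinCre EAE 1 to 4. No ligand passed the test, and at this depth a difference in type I interferon RNA was not detectable. Of 6 receptor genes only Il10rb passed, over all nuclei. Ifnar1 and Ifnar2, the chains of the type I receptor, did not pass over all nuclei (log2 fold change 0.11 ± 0.09, edgeR adjusted p = 0.826 and log2 fold change 0.32 ± 0.08, edgeR adjusted p = 0.0747).

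Signal carriers were also higher in several classes. Stat2 was at 37.4, 30.3, 61.8 and 41.8 CPM in fl EAE 1 to 4 and 174, 94.9, 177 and 189 CPM in NestinCre EAE 1 to 4 in mature oligodendrocytes (log2 fold change 1.84 ± 0.22, edgeR adjusted p = 0.000989) and was also higher in microglia, astrocytes, OPC and Bergmann glia. Irf9, which completes the ISRE-binding complex, was higher in mature oligodendrocytes (log2 fold change 1.83 ± 0.21, edgeR adjusted p = 0.000811) and OPC (log2 fold change 2.09 ± 0.44, edgeR adjusted p = 0.00603) and not in microglia (log2 fold change -0.16 ± 0.24, edgeR adjusted p = 0.862). In granule cells neither Stat2 nor Irf9 passed. The feedback inhibitor Socs1 was higher in microglia (log2 fold change 2.79 ± 0.43, edgeR adjusted p = 8.88e-05) and mature oligodendrocytes (log2 fold change 3.54 ± 0.50, edgeR adjusted p = 0.00176). Irf1 and Irf7, transcription factors of the pathway, were higher in microglia, mature oligodendrocytes and granule cells. After the phagocyte profile was taken off, Stat2 and Irf9 kept these calls, Socs1 kept that in microglia and not that in mature oligodendrocytes, Irf1 passed in microglia and mature oligodendrocytes, and Irf7 in mature oligodendrocytes.

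Of 21 known interferon-gamma targets, those tested and higher numbered 18 of 18 in microglia, 16 of 18 in mature oligodendrocytes, 10 of 11 in astrocytes and 14 of 14 in OPC, where 3.45%, 1.64%, 0.606% and 0.655% of all genes were higher. In Bergmann glia they numbered 7 of 8, in granule cells 18 of 20, in molecular layer interneurons 10 of 14, in leptomeningeal cells or fibroblasts 11 of 13 and in inhibitory neurons 1 of 15, where 0.212%, 1.53%, 0.4%, 0.407% and 0.0818% of all genes were higher. None was lower in any class. A target could also reach the UMI minimum through its level in NestinCre EAE alone, so these counts describe the targets that passed. Once the phagocyte profile was taken off, 18 were higher in microglia, 9 in mature oligodendrocytes, 10 in astrocytes, 11 in OPC, 7 in Bergmann glia and 11 in leptomeningeal cells or fibroblasts, but 0 in granule cells, 1 in molecular layer interneurons and 0 in inhibitory neurons. Of all genes 3.01%, 0.788%, 0.487%, 0.55%, 0.202%, 0.357%, 0.0377%, 0.0951% and 0.0315% were then higher, in the same order. Iigp1, a GTPase that attacks the vacuoles of intracellular parasites, was at 0, 0, 195 and 3.36 CPM in fl EAE 1 to 4 and 1812, 1757, 1544 and 1018 CPM in NestinCre EAE 1 to 4 in microglia (log2 fold change 4.60 ± 0.45, edgeR adjusted p = 1.24e-07). Ciita, the master activator of class II antigen presentation, was at 4.94, 5.36, 17.1 and 0 CPM in fl EAE 1 to 4 and 134, 127, 134 and 165 CPM in NestinCre EAE 1 to 4 (log2 fold change 4.02 ± 0.37, edgeR adjusted p = 7.79e-08), and Gbp4, a guanylate-binding protein, at 0, 0, 40.6 and 13.4 CPM in fl EAE 1 to 4 and 304, 288, 272 and 188 CPM in NestinCre EAE 1 to 4 (log2 fold change 3.79 ± 0.35, edgeR adjusted p = 7.79e-08).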

How the data were processed

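Single nuclei of 11 mice, sorted by Hoechst stain, were profiled with droplet 3' RNA-seq. The values are raw UMI counts per gene and nucleus, deposited by the authors as Cell Ranger matrices with intronic reads counted (version 6.0.2 per the labels for runs 2 and 3, a later release per the file headers for run 1) on GRCm39.

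Of 189709 barcodes, 188089 had at least 200 detected genes (500 for runs 2 and 3) and no more than 5% mitochondrial UMIs. Nuclei with high doublet scores (26602) and those in doublet clusters (7403), sets that overlap, were set aside, leaving 159265. Nuclei were clustered in scanpy 1.11.5 into 124 clusters, of which 61 were named from marker genes. A gene with at least 20 UMIs in a class was tested in edgeR 4.0.16 (R 4.3.3) by the quasi-likelihood test on sums per library, with TMM scaling and run as a term, for classes with at least 10 nuclei in every library. Benjamini-Hochberg adjustment ran over all genes of a class at 0.05. The EAE comparison used the 8 EAE libraries, and the comparison with naive mice all 11. The pipeline was tested on simulated data: among 12568 genes of the microglia comparison, 83% of genes changed by a log2 fold change of 1 and 100% of those changed by 2 were recovered. False calls made up 4.2% of the calls there, 8.9% among 18718 genes in granule cells and 7% among 20456 genes over all nuclei. The changed genes were drawn from those with at least 200 UMIs over the EAE libraries, and no run effect was simulated. Recovery of members with fewer UMIs was therefore not measured.

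Replicate 4 of both EAE groups differed from the others in run and in Cell Ranger release. Within a run only their numbers tell replicates of a group apart, so p-values measure the spread between these samples. EAE replicate 4 was numbered in accession order. Same-numbered libraries of run 1 correlated at -0.19 to 0.161 in their deviations, so the numbers were not taken as pairs. The members and lists were chosen with earlier results of these data known. Per class, values per library were given for up to 6 called members with the largest log2 fold change and the 3 with most UMIs, and up to 4 genes per pathway list. A gene of these lists is not reported here. Folds against fl EAE groups with 0 UMIs used a limit of 3 UMIs over the group, and those with 1 to 3 UMIs are ratios with exact 95% intervals, both for counting error only. Alternatives were DESeq2 1.42.0, RLE scaling, other filters, no run term, run 1 alone, a replicate block, doublets kept, depth limits, leaving out each library and, chosen after seeing the data, taking off the phagocyte profile, alone or with that of neutrophils (marker Csf3r left out, since microglia hold it).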

Additional observations from a re-analysis of the deposited data

Results flagged for a closer look

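In 186 groups of 4 libraries, 30 had a library far from the other 3 by Dixon's criterion. Chance gives about 1 in 20 only for continuous, normally spread values. Where the other 3 libraries were at 0, a single UMI is always flagged. The number flagged is therefore no measure of an excess. The other libraries of the group are given as a range.

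Library fl EAE 3 stood high most often. Its summed member level was 158.8 CPM over all nuclei (others 81.7 to 89.2), 329.3 CPM in mature oligodendrocytes (181.7 to 197.8) and 2027 CPM in leptomeningeal cells or fibroblasts (935.8 to 1082). Oasl1 over all nuclei was at 0.312 CPM there (0.0441 to 0.0887). In granule cells Ifi27l2a was at 2.78 CPM (0.579 to 0.78) and Zbp1 at 1.06 CPM (0.05 to 0.201). In mature oligodendrocytes Oasl2 was at 9.31 CPM (0 to 0.848) and Oas1a at 0.499 CPM. In other classes of fl EAE 3, Rsad2 was at 3.52 CPM in astrocytes, Oas3 at 2.14 CPM in microglia and Bst2 at 0.809 CPM in molecular layer interneurons. In OPC Oasl2 was at 4.38 CPM, and Usp18 and Slfn8 were each at 8.77 CPM. From Oas1a on, the other fl EAE libraries were at 0.

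In NestinCre EAE 1 granule cells stood high in Oasl2 at 20.6 CPM (3.07 to 4.12), Ifit1 at 9.56 CPM (2.23 to 2.86) and Ddx60 at 7.22 CPM (1.43 to 2.09). In NestinCre EAE 4 Ifi27 was high, at 48.7 CPM over all nuclei (18.9 to 21.7), 250.9 CPM in mature oligodendrocytes (99.4 to 112.3) and 23.1 CPM in granule cells (9.98 to 11.2). NestinCre EAE 2 stood low in OPC, with Herc6 at 29.2 CPM (96.5 to 109.2) and Ddx60 at 25.5 CPM (113.5 to 120.0).

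Single values were Usp18 in astrocytes of NestinCre EAE 3 at 63.6 CPM (5.84 to 14.2) and Oasl1 in microglia of NestinCre EAE 3 at 91.4 CPM (31.8 to 40.4). Eif2ak2 of fl EAE 2 was at 7.70 CPM in granule cells (4.00 to 4.45) and 8.82 CPM in inhibitory neurons (6.78 to 7.12). Ifi44 in astrocytes and Parp14 in OPC of fl EAE 1 were at 3.42 and 3.76 CPM, where the others were at 0. In molecular layer interneurons Dhx58 of fl EAE 1 was at 9.28 CPM (3.64 to 4.08) and Ifi27l2a of fl EAE 2 at 0 CPM (1.03 to 1.21). None of these differences was traced to a cause.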

How the results depend on the processing

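Counts of members higher in NestinCre EAE moved by over 1.5 times as follows, and the cause was not tested. With the phagocyte profile taken off there were 2 over all nuclei, 1 in granule cells, 20 in mature oligodendrocytes, 1 in molecular layer interneurons and 0 in the 5 other classes together, and 22 of all genes were called over all nuclei. With the neutrophil profile taken off as well, these counts were 0, 1, 18, 1, 0 and 16, and Bergmann glia had 2. Over all nuclei these steps also took off the RNA of the phagocyte and neutrophil nuclei themselves. With the replicate number as a block granule cells had 5; the block moved no other count of members past 1.5 times and turned the log2 fold change of Ifi27 in leptomeningeal cells to -0.02. DESeq2 gave 10 in astrocytes, 4 in OPC and 1 in Bergmann glia. The edgeR filterByExpr limit gave 11 in astrocytes, 1 in Bergmann glia, 2 in molecular layer interneurons and 0 in the 5 others, and no filter beyond 1 UMI gave 10 in Bergmann glia, 8 in molecular layer interneurons and 6 in the 5 others. Run 1 alone gave 12 in astrocytes, 6 in OPC, 1 in molecular layer interneurons and 0 in the 5 others. In the 5 others, RLE scaling gave 2, no run term 0 and doublets kept 6. For NestinCre EAE against naive DESeq2 gave 6, filterByExpr 1 and no run term 30, and for the interaction DESeq2 and no run term each gave 1. The genotype difference in microglia with a member UMI was 13.6 percentage points after thinning, against 7.02.

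Leaving out each library gave 23 to 42 members over all nuclei, 0 to 26 in granule cells, 25 to 32 in mature oligodendrocytes, 22 to 35 in microglia, 8 to 21 in astrocytes, 6 to 13 in OPC, 0 to 8 in Bergmann glia, 1 to 4 in molecular layer interneurons and 0 to 2 in the 5 others. Of all genes 190 to 660 were called over all nuclei, the lowest without fl EAE 1. It gave 0 to 7 for NestinCre EAE against naive, 0 to 1 for fl EAE against naive and 0 to 3 for the interaction.

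Of 1575 values of named genes under alternatives, 1320 kept direction and call, 211 lost the call, 6 gained it and 38 changed sign, all in members without a call. In log2 fold change, run 1 alone gave 0.20 for Eif2ak2 and -0.35 for Rtp4 in Golgi cells, -0.13 for Parp9 and -0.21 for Oas2 in Purkinje cells, -0.23 for Ifi27 in leptomeningeal cells and -0.01 for Rtp4 in mature oligodendrocytes. Doublets kept gave 0.01 and -0.05 for Eif2ak2 and Rtp4 in Golgi cells. No filter, and no nuclei above 6000 UMIs, each gave -0.02 for Ifi27 in leptomeningeal cells, and the phagocyte profile taken off gave -0.05 for Rtp4 in molecular layer interneurons. Both profiles taken off gave -0.11 there and -0.1 for Parp9 in granule cells. Leaving out libraries gave -0.79 to 0.30 for Eif2ak2 and -0.37 to 0.51 for Rtp4 in Golgi cells, and -0.14 to 0.79 for Parp9, -0.22 to 0.62 for Eif2ak2 and -0.22 to 0.94 for Oas2 in Purkinje cells. It gave -0.23 to 0.43 for Ifi27 in leptomeningeal cells, -0.02 to 0.37 for Rtp4 in mature oligodendrocytes and -0.11 to 0.06 for Rtp4 in molecular layer interneurons. Classes with few nuclei hold few member UMIs, which limits what could be detected there.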
